A study of Mus musculus with 4 samples.

Results

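Transcripts of 34 integrins and other receptors for the extracellular matrix were examined in basal epithelial cells of the mouse prostate. The members were chosen by name, as 25 integrin subunits, the collagen-activated kinases Ddr1 and Ddr2, dystroglycan (Dag1), Cd44, 4 syndecans and Mrc2, out of 49671 genes in the table. All 34 had a row, and 31 had a mean of at least 1 CPM (a gene's reads scaled to the same total in each library) over the 4 libraries and were tested. Itgae, Itgam and Itgax were below that mean and were not tested, and a second row named Itgam held no reads. The libraries were 2 from the tips and 2 from the ducts of the ventral lobe of male mice, sorted as basal cells with high EpCAM and high CD49f after CD45, CD31 and CD140a positive cells had been removed. Tissue of 20 mice was cut into tips and ducts, per the design text. No strain, genotype or treatment is given. Whether both libraries of a group stem from different animals is not said. The p-values then reflect only the spread among these samples, possibly a technical one. The titles put the age at postnatal day 13 and the age field at days 10 to 12. The cell type field calls all 4 libraries tip, so the groups were taken from the titles.

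Integrins are pairs of an alpha and a beta chain that span the membrane and link the matrix outside to the actin or keratin cytoskeleton inside. The alpha chain largely sets the ligand: collagen for alpha 1, 2, 10 and 11, laminin for alpha 3, 6 and 7, and proteins with an RGD (arginine, glycine, aspartate) sequence, such as fibronectin, for alpha 5, 8, v and IIb. Basal cells of a gland sit on a basement membrane, to which they hold by alpha 6 beta 4 in hemidesmosomes and by beta 1 integrins in focal adhesions, while fibroblasts and smooth muscle carry other sets of these receptors. Bulk values mix these sources, and fewer cells of a type cannot be told apart from less RNA per cell.

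The libraries held 1439004 and 1742531 reads in tip and 1568194 and 1517982 reads in duct, as recovered from the steps of the scaled values. One read was worth 0.574 to 0.695 CPM, and a count of 0 allows up to 3 reads, or 1.72 to 2.08 CPM, by counting error only. The duct libraries stood farther apart than the tip libraries, with a chi-square per degree of freedom of 20.8 against 6.88. Genes of the sort's own proteins were read in all 4 libraries. Pdgfra, the gene of CD140a, measured 192 and 231 CPM in the tips, 42.1 CPM in duct 1 and 650.2 CPM in duct 2 (987 reads). Its reads thus remained despite the labelled removal of CD140a positive cells, most of all in duct 2. The sort acted on surface protein and RNA was read here, so whether such cells passed was not tested. Pecam1 (CD31) ranged from 12.1 CPM in duct 1 to 62.6 CPM in duct 2. The summed level of 15 fibroblast markers was 6558 and 12691 CPM in the tips and 3187 and 22473 CPM in the ducts, with none of the 15 at 0 in any library. That of 10 basal markers was 8366 and 8283 CPM in the tips and 12371 and 6300 CPM in the ducts, with 9 or 10 of the 10 detected in each library, of which the desmoglein Dsg3 was at 0 in the tips and in duct 1. Dst alone held 4823.5 and 5163 CPM in the tips and 7461 and 3630 CPM in the ducts. Krt5, Trp63 and Cdh3 were higher in both tip libraries (28.5% of all genes), and the other 6 tested overlapped. Among these, Igfbp3 measured 83.55 CPM in duct 1 and 1156 CPM in duct 2. Smooth muscle and pericyte markers (10 of 10 detected in each library) summed to 1618 and 2789 CPM in the tips and 609 and 3044 CPM in the ducts. Endothelial markers summed to 104.5 and 104.1 CPM against 41.1 and 320.5 CPM, with Plvap at 0 in duct 1. Leukocyte markers summed to 236 and 113 CPM against 100.3 and 116 CPM, of which the T cell gene Cd3e alone held 131 and 88.4 CPM in the tips and 61.2 and 68.5 CPM in the ducts. The other 11 summed to 104.5 CPM in tip 1 and 24.3 CPM in tip 2, and to 39.1 and 47.0 CPM in the ducts. That sum was highest in tip 1, where Ptprc had 18 reads, Lyz2 31 and Laptm5 17, against 1 to 7 in each other library. Tyrobp was at 0 in tip 2 and both ducts. Not all of the list followed, as Cd68 had 25 and 18 reads in the tips and 24 and 26 in the ducts. Csf1r had 27 and 10 reads in the tips and 14 and 24 in the ducts, and Cd79a 1 and 3 against 8 and 4. Luminal markers summed to 1528 and 1644 CPM against 2667 and 1045 CPM. Only duct 2 held reads of the islet hormone list (331 CPM). Of 6 genes that mark stress from dissociation, Jun, Egr1 and Atf3 were higher in both tip libraries (28.5% of all genes). Each had an unadjusted limma p under 0.05 (5.82% of all genes, higher in tip) and a limma adjusted p of 0.667. Hspa1a was lower in both tip libraries (17.4 and 25.3 CPM against 30 and 41.55 CPM), and Fos and Hspa1b overlapped. The 6 summed to 12730 and 6472 CPM in the tips and 5677 and 4891 CPM in the ducts. The part of these markers in the results below was not tested.

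No matrix receptor passed the test between tip and duct, and 24 of the 31 tested differed more between the 2 ducts than between the 2 tips (58.4% of all genes did). The test was limma on log2(CPM + 1), adjusted by Benjamini-Hochberg over 17865 genes at 0.05. It called 0 of the 31 members and 0 of all genes (0%). At an unadjusted p under 0.05 it counted 1 member, the collagen receptor subunit Itga2 (7.42% of all genes). It was lower in tip, as were 1.61% of all genes, and 0 members were higher, where 5.82% of all genes were. On the recovered reads edgeR also called 0 members, with Itga2 at an unadjusted p under 0.05 (5.87% of all genes). DESeq2 called 0 members (0.0112% of all genes), with Itga2, Itga5 and Sdc4 at an unadjusted p under 0.05 (2.33% of all genes). Of the members 3 lay above both ducts in each tip library (28.5% of all genes) and 3 lay below both (11.1% of all genes). The 3 higher were Itgb8, Dag1 and Itgal, and the 3 lower were Itga2, Itga11 and Itgb1. For single values, the smallest 2-sided p that exact permutation of 4 libraries allows is 0.333.

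A positive log2 fold (tip minus duct) was found for 17 members and a negative one for 14, where 63.1% of all genes were positive. The median log2 fold of the tested members was 0.02, beside 0.20 for all genes tested. The deposited scaling thus put the median gene 0.20 above zero, whereas TMM scaling put it at 0.03 and median-ratio scaling at -0.01. Relative to the median gene Itga2 stood at -1.32, Itga11 at -1.39, Itgb1 at -0.51, Itgb8 at 0.29 and Dag1 at 0.10. With TMM scaling 3 members were higher in both tip libraries (21% of all genes) and 6 lower (18.1%). With median-ratio scaling these were 1 (19.2%) and 6 (19.7%). With quantile scaling 3 were higher (19.5%) and 2 lower (16.6%). Itga2 and Itga11 stayed below both ducts in each tip library with the deposited, TMM, median-ratio and quantile scalings. Itgb8 and Dag1 were no longer separate with median-ratio scaling, and Itgb1 with quantile scaling.

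**Figure D1:**
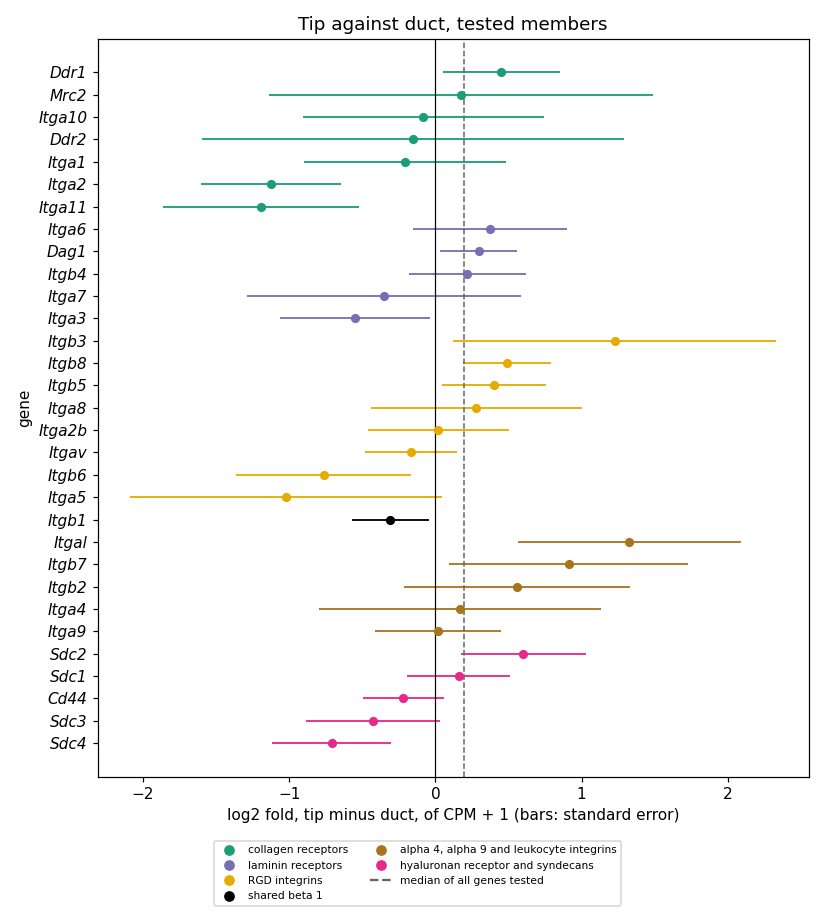
Log2 fold of each tested member, tip minus duct, on the log2(CPM + 1) scale, with its limma standard error as a bar (2 libraries per group), grouped by role. The dashed line is the median of all genes tested (0.20), and Itga2 and Itga11 lie farthest to its left.

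The level of each receptor per kilobase of exon ran from 0.0709 CPM per kb for Itgae to 197 for Itgb1. Itgb1, the beta chain that pairs with most of these alpha chains, was highest, as a mean over the 4 libraries. It was followed by the heparan sulfate proteoglycan Sdc4 (147 CPM per kb), the hyaluronan receptor Cd44 (127 CPM per kb), Itga6 (110 CPM per kb) and Itgav (93.3 CPM per kb). Itga3 (62.9 CPM per kb), Itgb4 (54.7 CPM per kb), Sdc1 (51.1 CPM per kb) and Dag1 (46.6 CPM per kb) came next. The order differed between libraries: in duct 1 Sdc4 (258 CPM per kb) was above Itgb1 (204 CPM per kb), and in duct 2 Itga6 (52.6 CPM per kb) was below Itga5 (74.9 CPM per kb) and Itgav (74.7 CPM per kb). The lengths come from GENCODE M21, which may not be the annotation the reads were counted on.

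**Figure D2:**
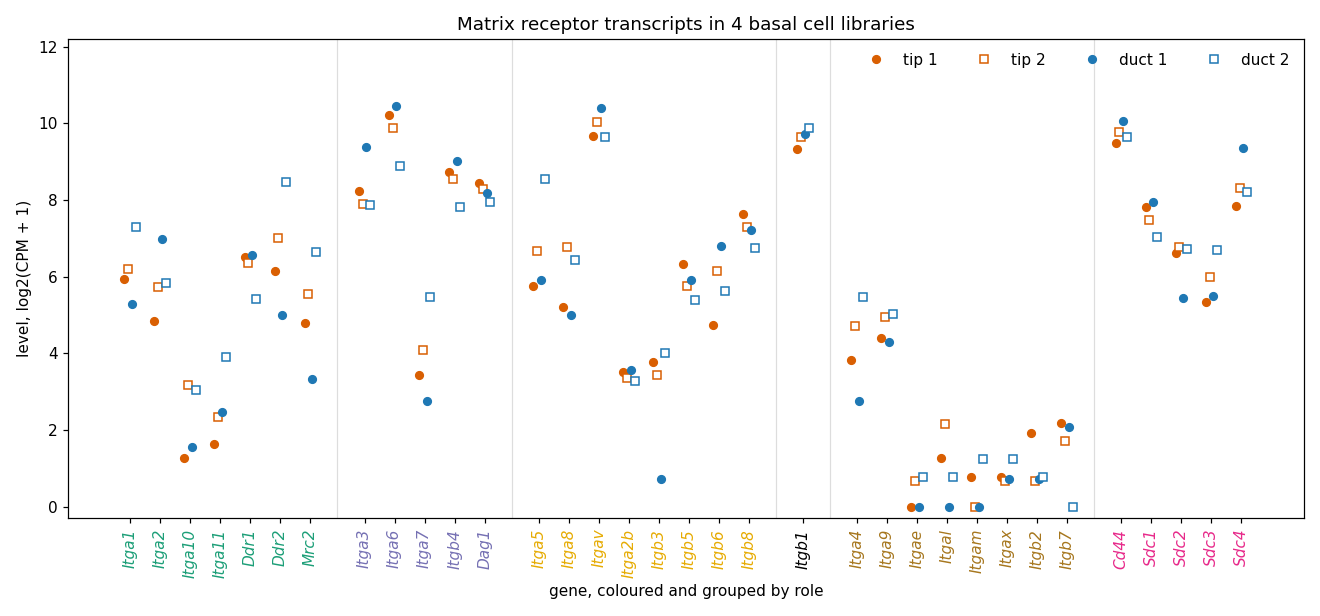
Level of each of the 34 members in each library as log2(CPM + 1), tips in orange and ducts in blue, filled circles for library 1 and open squares for library 2, with genes grouped and coloured by role. Duct 1 and duct 2 often mark both ends of a gene's range, as for Ddr2, Mrc2, Itga3 and Itga6.

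Among the 7 collagen receptors, Itga2 and Itga11 were lower in both tip libraries (11.1% of all genes), 0 were higher in both (28.5% of all genes) and the other 5 overlapped. The median log2 fold of the 7 was -0.15. Itga2, the alpha chain of the epithelial collagen receptor, measured 27.8 CPM in tip 1, 51.6 CPM in tip 2, 126 CPM in duct 1 and 56.0 CPM in duct 2. Tip 2 and duct 2 lay close together, and duct 1 stood above the other 3 by over 2-fold. The group means were 39.7 ± 16.9 CPM in the tips and 90.8 ± 49.2 CPM in the ducts (SD, n = 2 each), a log2 fold of -1.13 ± 0.48 (SE) with a limma adjusted p of 0.667. Over 14 alternatives the log2 fold ran from -1.70 to -0.55 and the adjusted p from 0.00112 to 1, the lowest without duct 2. Itga11, the alpha chain of a collagen receptor of fibroblasts, measured 2.10 and 4.05 CPM in the tips and 4.50 and 13.8 CPM in the ducts, on 3, 7, 7 and 21 reads. Only the reads of duct 2 set it apart, since tip 2 and duct 1 held the same number. Its log2 fold was -1.19 ± 0.67 (limma adjusted p = 0.694).

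Itga1, the alpha chain of a second collagen receptor, had 60.5 and 72.9 CPM in the tips, 37.6 CPM in duct 1 and 156 CPM in duct 2. The tips thus lay between the ducts. Ddr2, a receptor kinase for fibrillar collagen, measured 69.5 and 128 CPM in the tips, 30.6 CPM in duct 1 and 354 CPM in duct 2. Mrc2, which takes up collagen into the cell, measured 26.4 and 45.4 CPM in the tips, 8.95 CPM in duct 1 and 99.5 CPM in duct 2. Both followed Itga1 in order, with duct 2 highest and duct 1 lowest. Ddr1, the collagen-activated kinase of epithelia, had the opposite arrangement in the ducts, with 89.7 and 81.5 CPM in the tips, 93.2 CPM in duct 1 and 41.5 CPM in duct 2. Itga10 was near the floor, at 1.40 and 8.05 CPM in the tips and 1.95 and 7.25 CPM in the ducts.

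Itga1 and Itga2 are neighbours on chromosome 13, at 114953096 to 115101964 and 114833081 to 114932100 (GRCm38), both on the minus strand. Their order in the ducts was opposite: duct 2 held 4.13 times the Itga1 reads of duct 1 per read sequenced (95% exact counting interval 3.09 to 5.59), and duct 1 held 2.24 times the Itga2 reads of duct 2 (1.73 to 2.93). These intervals compare 2 libraries and not conditions. The promoters of the 4 collagen-binding alpha chains are shown because these chains bind the same kind of ligand and differed in which duct held more. Each is 250 bases before to 50 after a RefSeq transcript start on GRCm38.p6, read 5′ to 3′ on the gene's strand: Itga1 at chr13:115101915-115102214 (minus), Itga2 at chr13:114932051-114932350 (minus), Itga10 at chr3:96645334-96645633 (plus) and Itga11 at chr9:62677605-62677904 (plus). Capitals mark matches, on either strand, to a GC box (GGGCGG), an AP-1 motif (TGANTCA) or a TEAD motif (GGAATG), none of which overlap here.
Itga1: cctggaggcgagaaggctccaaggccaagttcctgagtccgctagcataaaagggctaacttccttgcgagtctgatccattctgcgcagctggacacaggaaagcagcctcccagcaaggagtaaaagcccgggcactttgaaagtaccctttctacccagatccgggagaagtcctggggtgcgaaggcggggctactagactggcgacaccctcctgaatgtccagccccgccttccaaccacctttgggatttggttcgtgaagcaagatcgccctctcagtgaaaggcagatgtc
Itga2: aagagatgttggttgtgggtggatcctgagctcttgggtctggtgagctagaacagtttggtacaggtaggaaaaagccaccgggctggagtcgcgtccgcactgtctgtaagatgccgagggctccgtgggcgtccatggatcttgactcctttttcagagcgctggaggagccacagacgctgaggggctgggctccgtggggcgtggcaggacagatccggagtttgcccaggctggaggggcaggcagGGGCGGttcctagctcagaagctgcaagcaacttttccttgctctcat
Itga10: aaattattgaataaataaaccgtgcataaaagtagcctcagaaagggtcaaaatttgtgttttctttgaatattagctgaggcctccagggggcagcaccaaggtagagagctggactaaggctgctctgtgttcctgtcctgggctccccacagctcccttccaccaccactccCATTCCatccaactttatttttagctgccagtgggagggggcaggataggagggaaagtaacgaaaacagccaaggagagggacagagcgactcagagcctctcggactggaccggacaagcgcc
Itga11: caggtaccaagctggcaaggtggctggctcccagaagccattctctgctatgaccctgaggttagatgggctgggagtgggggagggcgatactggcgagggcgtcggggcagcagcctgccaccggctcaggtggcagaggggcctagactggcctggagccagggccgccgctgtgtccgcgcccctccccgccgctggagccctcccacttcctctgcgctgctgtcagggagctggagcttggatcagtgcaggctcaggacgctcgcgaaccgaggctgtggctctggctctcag
The window of Itga2 held a GC box, that of Itga10 a TEAD match on the opposite strand, and those of Itga1 and Itga11 none of the 3. Among 32851 promoters of the same length, 35.7% held the GC box, 7.81% the AP-1 motif and 14.7% the TEAD motif. Of 31 promoters listed for 25 members, 18 held the GC box, 4 the AP-1 motif and 2 the TEAD motif. A match of letters is a description of the window only.

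Of 5 laminin receptors, Dag1 was the 1 whose groups did not overlap (39.7% of all genes). The median log2 fold of the 5 was 0.22, close to that of all genes. Itga6, the CD49f of the sort gate and partner of beta 4 in hemidesmosomes, measured 1177 and 939 CPM in the tips, 1389 CPM in duct 1 and 474 CPM in duct 2. The sort selected cells on its product. Itgb4, the hemidesmosome beta chain, measured 420 and 374 CPM in the tips, 518 CPM in duct 1 and 224 CPM in duct 2. Both chains had duct 1 highest and duct 2 lowest, and per read sequenced duct 1 held 2.93 times (2.69 to 3.19) and 2.31 times (2.03 to 2.63) the level of duct 2. Itga3, a laminin receptor chain of focal adhesions, measured 302 and 238 CPM in the tips, 665 CPM in duct 1 and 232 CPM in duct 2. Only duct 1 stood apart, and its log2 fold was -0.55 ± 0.51. Itga7, the laminin receptor chain of muscle, was high in duct 2 instead, with 9.75 and 16.1 CPM in the tips, 5.75 CPM in duct 1 and 43.5 CPM in duct 2. Dag1, which binds laminin outside the cell and dystrophin or utrophin inside, lies on chromosome 9 at 108204634 to 108263958. It measured 345 and 309 CPM in the tips and 287 and 246 CPM in the ducts, with a log2 fold of 0.30 ± 0.26 (limma adjusted p = 0.789). The gap between the lower tip and the higher duct was smaller than the difference within each group.

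RGD-binding integrins had a median log2 fold of 0.15, and Itgb8 was the 1 of 8 whose groups did not overlap (39.7% of all genes). Itgb8 pairs with alpha v in a receptor that activates latent TGF-beta, and lies on chromosome 12 at 119158022 to 119238802. It measured 197 and 156 CPM in the tips and 147 and 105 CPM in the ducts, for means of 176 ± 29.6 and 126 ± 29.6 CPM (SD, n = 2 each) and a log2 fold of 0.49 ± 0.30 (limma adjusted p = 0.708). Over 14 alternatives its log2 fold ran from 0.24 to 0.73 and its adjusted p from 0.222 to 1. Itgb6, the beta chain of another TGF-beta activating receptor of epithelia, measured 25.8 and 69.5 CPM in the tips and 110 and 48.1 CPM in the ducts. It was high in tip 2 and duct 1, so the groups overlapped. Itgb5, a vitronectin receptor chain, measured 79.2 and 53.4 CPM in the tips and 58.7 and 40.9 CPM in the ducts.

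Itgav, the alpha chain that Itgb5, Itgb6 and Itgb8 share, measured 817 and 1048 CPM in the tips and 1343 and 803 CPM in the ducts, so both tips fell between the ducts. Itga5, the fibronectin receptor chain, measured 52.9 and 99.9 CPM in the tips, 59.4 CPM in duct 1 and 370 CPM in duct 2. Duct 2 alone stood apart, 6.23 times above duct 1. Its log2 fold of -1.02 ± 1.07 was within its error, and it turned to 0.29 without duct 2. Itga8, a nephronectin receptor chain of mesenchyme, was high in tip 2 and duct 2 (36.1 and 108 CPM in the tips, 30.6 and 85.7 CPM in the ducts). Itgb3 had 12.6 and 9.80 CPM in the tips, 0.65 CPM in duct 1 and 15.2 CPM in duct 2, on 18, 17, 1 and 23 reads. Its partner Itga2b, of the platelet fibrinogen receptor, was even across libraries (8.60 to 10.8 CPM), while the other 5 platelet markers had 0 to 11 reads per library, with Ppbp at 0 in all 4, Gp9 at 2, 11, 4 and 4 reads and Gp1ba at 6, 5, 11 and 3 reads.

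Itgb1 measured 641 and 802 CPM in the tips and 834 and 946 CPM in the ducts. It was the 1 of 8 tested beta chains lower in both tip libraries (11.1% of all genes). The nearest tip and duct values, 802 and 834 CPM, were closer than the libraries within either group, and the log2 fold was -0.31 ± 0.26 (limma adjusted p = 0.782). Over 14 alternatives the log2 fold ran from -0.54 to -0.15 and the adjusted p from 0.467 to 1. It lies on chromosome 8 at 128685654 to 128733200.

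Integrins of leukocytes were close to the floor in these libraries, from which CD45-positive cells had been removed per the labels. Ptprc, the gene of CD45, still had 18 and 1 reads in the tips and 1 and 7 reads in the ducts. Itgae, Itgam and Itgax had 0 to 2 reads per library and Itgb2, the shared beta chain of leukocyte integrins, 1 to 4 reads. Itgal had 2 and 6 reads in the tips and 0 and 1 in the ducts, the third member higher in both tip libraries, at or near the limit that a count of 0 allows. Itgb7 had 5 and 4 reads in the tips, 5 in duct 1 and 0 in duct 2. Itga4 and Itga9, alpha chains for fibronectin, VCAM1 or tenascin that are not confined to leukocytes, were above the floor. Itga4 measured 13.2 and 25.3 CPM in the tips, 5.75 CPM in duct 1 and 42.9 CPM in duct 2, and Itga9 18.5 to 31.6 CPM.

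The hyaluronan receptor and the syndecans all overlapped between tip and duct, with a median log2 fold of -0.22 (39.7% of all genes did not overlap). Cd44 measured 721 and 867 CPM in the tips and 1066 and 795 CPM in the ducts. Sdc4, the syndecan of focal adhesions, measured 228 and 318 CPM in the tips, 658 CPM in duct 1 and 296 CPM in duct 2. Duct 1 stood over 2-fold above each other library, and the log2 fold was -0.71 ± 0.41 (limma adjusted p = 0.699). With TMM and median-ratio scaling Cd44 and Sdc4 were lower in both tip libraries. Sdc1, the main syndecan of epithelia, measured 225 and 177 CPM in the tips, 247 CPM in duct 1 and 129 CPM in duct 2. Sdc2, a syndecan of mesenchyme, was low in duct 1 alone (97.3 and 107 CPM in the tips, 42.8 and 105 CPM in the ducts). Sdc3 was highest in duct 2 (39.6 and 62.6 CPM in the tips, 44.0 and 103 CPM in the ducts).

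More members differed by 2-fold between the duct libraries than between the tip libraries. On the log2(CPM + 1) scale, 12 of 31 members were at least 2-fold higher in duct 2 than in duct 1 (15.2% of all genes) and 8 at least 2-fold higher in duct 1 (12.7% of all genes). There is 1 library on each side, so this is a description with no test. Between the tips, 3 were at least 2-fold higher in tip 2 (8.7% of all genes) and 1 in tip 1 (9.86% of all genes). The 12 were Ddr2, Mrc2, Itga7, Itga4, Itga5, Itga1, Itga8, Itga10, Itga11, Itgb3, Sdc2 and Sdc3. The 8 were Itga6, Itga3, Itgb4, Itga2, Ddr1, Itgb6, Sdc4 and Itgb7, the last on 5 reads against 0. Per read sequenced, Ddr2 was 11.6 times higher in duct 2 (95% exact counting interval 8.61 to 15.9) and Mrc2 11.1 times (6.44 to 20.9), while Itga3 was 2.87 times higher in duct 1 (2.54 to 3.25). Of the 12 higher in duct 2, 11 were also higher in tip 2 than in tip 1, with Itgb3 the exception (59.1% of all genes that were 2-fold higher in duct 2). Of the 8 higher in duct 1, 3 were higher and 5 lower in tip 2 than in tip 1 (42.3% and 57.2% of all genes that were 2-fold higher in duct 1). The fibroblast markers had a median log2 difference of 3.92 between duct 2 and duct 1 and 0.83 between tip 2 and tip 1, and the basal markers -1.59 and 0.10, beside -0.05 and -0.10 for all genes.

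**Figure D3:**
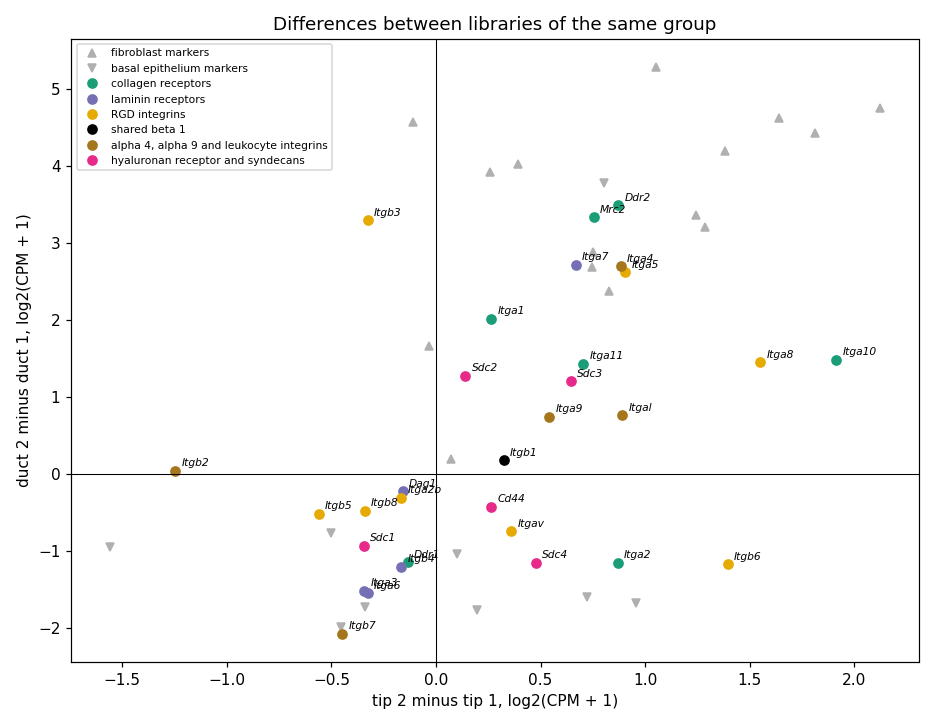
Difference between the 2 libraries of a group for each tested member, tips across and ducts up, in log2(CPM + 1), with tested fibroblast markers (grey upward triangles) and basal markers (grey downward triangles) beside them. Ddr2, Mrc2, Itga7, Itga4 and Itga5 lie among the fibroblast markers at the upper right, and Itga6, Itga3 and Itgb4 among the basal markers below zero. Igfbp3 of the basal list also lies at the upper right (0.80 across, 3.77 up). Markers of other cell types, some of which also differed between the ducts, are not drawn.

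Calls depended on which duct library stood for the ducts. Without duct 1, limma called 6 members (5.04% of all genes): Itga5, Mrc2, Itga7, Ddr2 and Itga1 lower in tip, and Itga6 higher. Without duct 2 it called 8 (4.91% of all genes): Itga3, Itga2, Sdc4 and Itgb6 lower in tip, and Itgb3, Mrc2, Sdc2 and Ddr2 higher. Ddr2 and Mrc2 were called in both fits with opposite signs, at log2 folds of -1.90 and -1.49 against 1.59 and 1.84. Each of these fits takes the spread of the single duct library from the tips. With tip 1 or tip 2 left out, 0 members were called (0% of all genes).

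Ratios within a library do not depend on its scaling, and were taken per kilobase of exon. Itga2 over Itga6, a collagen against a laminin receptor chain of epithelia, was 0.0299 and 0.0696 in the tips and 0.114 and 0.149 in the ducts. Both ducts were thus above both tips for this pair, although Itga2 over Itgb1 overlapped (0.0248 and 0.0368 against 0.0862 and 0.0339), as did Itga2 over Itga3 (0.0738 and 0.174 against 0.151 and 0.193). Itga6 over Itgb4, the hemidesmosome pair, stayed between 1.65 and 2.18 in all 4 libraries while each chain varied more than 2-fold. Itgav over Itgb8 was 4.26 and 6.93 in the tips and 9.38 and 7.84 in the ducts, also without overlap. Itgav over Itgb5 was 3.41 and 6.49 in the tips and 7.57 and 6.50 in the ducts, with tip 2 and duct 2 nearly equal. The remaining pairs taken, Itga1, Itga3, Itga6 and Itgav over Itgb1 and Itgav over Itgb6, all overlapped. These ratios have 2 values a group and were not tested. The smallest 2-sided p that exact permutation allows for them is 0.333. No share over other gene pairs was taken, so the pairs without overlap are a description only.

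Among 12 alpha chains that can pair with beta 1, Itga6, Itgav and Itga3 made up most of the summed CPM per kb in each library. Itga6 held 45.4% and 34.8% of the sum in the tips, 35.3% in duct 1 and 18.3% in duct 2. Itga5 held 3.73% and 6.77% in the tips, 2.76% in duct 1 and 26.1% in duct 2, and Itgav 26.0% to 32.6%. Duct 2 thus differed from the other 3 in both Itga6 and Itga5. The collagen-binding chains were minor throughout: Itga2 held 1.36% to 4.04% and Itga1 0.464% to 2.91%.

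**Figure D4:**
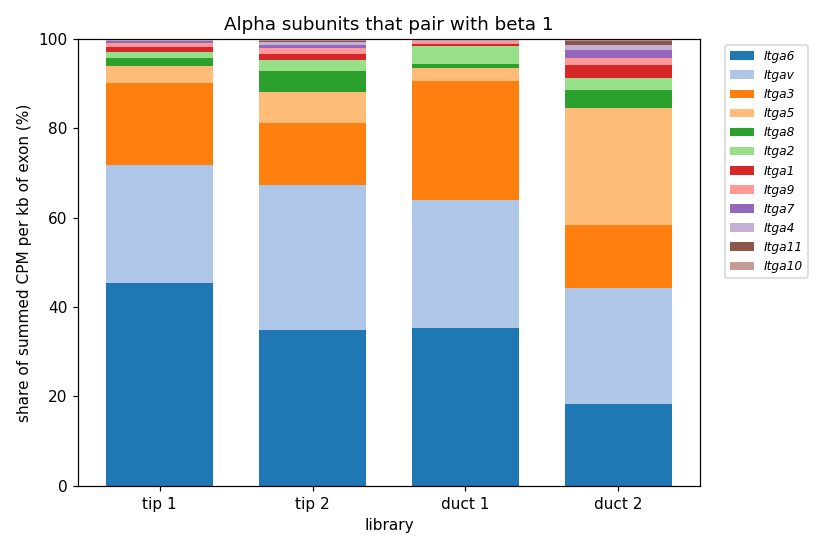
Share of each alpha chain in the summed CPM per kb of 12 alpha chains that can pair with beta 1, in each library, in percent. Itga6 takes 45.4% of the sum in tip 1 and 18.3% in duct 2, where Itga5 takes 26.1%.

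Genes that work with these receptors were read from lists, and 0 members of any list passed the test over all genes in limma. Of 15 activators and inhibitors of integrins, 9 had a positive and 6 a negative log2 fold, with a median of 0.03, and groups did not overlap for 1 higher (28.5% of all genes) and 1 lower in tip (11.1%). Fermt1, the epithelial kindlin that activates beta 1 integrins, measured 94.5 and 75.2 CPM in the tips and 67.6 and 24.4 CPM in the ducts. Fermt2, the kindlin of most other cells, measured 199 and 302 CPM in the tips, 257 CPM in duct 1 and 570 CPM in duct 2. The 2 kindlins had opposite orders in the ducts. Of 27 tested adaptors and kinases of adhesion sites, 10 had a positive and 17 a negative value, with a median of -0.20. Both tip libraries lay below both ducts for 8 of them (11.1% of all genes) and above for 1 (28.5%). Tns3, a tensin that binds integrin tails, was the 1 higher (log2 fold 1.26 ± 0.44, limma adjusted p = 0.667). Its values were 787 and 351 CPM in the tips and 275.5 and 174.6 CPM in the ducts, so tip 1 stood over 2-fold above each other library. Actn1, an actin crosslinker, was among the 8 lower (200.2 and 261 CPM in the tips, 338 and 307 CPM in the ducts). Of 10 tetraspanins and other membrane partners, 2 lay above (28.5% of all genes) and 4 below (11.1%) both ducts in each tip library (median 0.08). Cd47 was counted among the 4 although its values nearly met (115.4 and 112.5 CPM in the tips, 115.45 and 115.95 CPM in the ducts, log2 fold -0.02). Plaur, the urokinase receptor, measured 9.05 and 63.8 CPM in the tips and 162 and 92.2 CPM in the ducts. Of the 3 hemidesmosome partners, Plec, which ties beta 4 to keratin filaments, was lower in both tip libraries (11.1% of all genes), at 1235 and 1120 CPM against 1536 and 1325 CPM. The other 2 overlapped.

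Ligand genes also differed between the ducts. All 8 fibrillar and type VI collagen genes were at least 2-fold higher in duct 2 than in duct 1 (15.2% of all genes), with a median log2 difference of 4.12. None separated tip from duct (39.7% of all genes did), and the median log2 fold was 0.52. Of 16 laminin and basement membrane genes, Lama1 was the 1 higher in both tip libraries (28.5% of all genes), and none was lower in both (11.1%). Lama1 measured 89.7 and 103 CPM in the tips against 52.3 and 60.6 CPM in the ducts (log2 fold 0.76 ± 0.30, limma adjusted p = 0.667). Lama3 and Lamb3, chains of the epithelial laminin that binds alpha 6 beta 4, were lowest in duct 2 (192 and 122 CPM, against 498 to 604 and 309 to 418 CPM in the other 3). Of 13 RGD ligands and related proteins, 1 was higher (28.5% of all genes) and 2 lower (11.1%) in both tip libraries, the latter near the share over all genes. The 2 lower were Thbs1, thrombospondin 1 (3225 and 6621 CPM in the tips, 11780 and 10700.4 CPM in the ducts, log2 fold -1.28 ± 0.36), and Ctgf (45.9 and 62.0 CPM in the tips, 86.1 and 87.7 CPM in the ducts), each with a limma adjusted p of 0.667. Fibronectin (Fn1) was highest in duct 2 and lowest in duct 1, with 416 and 634 CPM in the tips, 75.9 CPM in duct 1 and 1152 CPM in duct 2.

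Exons of 8 members overlap annotated exons on the opposite strand (Ddr1, Ddr2, Itga4, Itga7, Itga8, Itgav, Itgb4 and Sdc3), and those of Itga1, Itga10 and Itgam overlap another gene on the same strand. The strand setting of the counting is not given in the sources used here, which leaves the counts of these genes uncertain. Itga2, Itga11, Itgb8, Dag1 and Itgb1 have no such overlap.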

How the data were processed

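Bulk RNA-seq libraries of sorted basal cells were made with a low-input kit, per the labels' protocols. STAR and HTSeq on GRCm38 (mm10) were used, per the submitters' processing notes. Their versions, the annotation and strand setting were not given in the sources used here. Signal values deposited by the authors are numbers of reads of a gene, scaled to a common total of 20008326 to 20011820 and rounded up, judging by the values. Dividing by each library's step gave whole reads within 0.1 read for 100% of values, and scaling back returned at least 99.87% exactly.

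CPM is the deposited value over 20. Testing covered the 17865 genes whose mean reached 1 CPM, with limma 3.58.1 in R 4.3.3 (variance trend, robust moderation, 2-sided) on log2(CPM + 1), which understates folds of low genes. edgeR 4.0.16 (quasi-likelihood) and DESeq2 1.42.0 on recovered reads, other scalings, pseudocounts of 0.5 and 4, other filters, a replicate block and leaving out each library were alternatives. The limma fit was also run on simulated reads with the same dispersion in every library. In these data the ducts stood farther apart than the tips, so that run does not check the fit for them. Exon lengths and positions are from GENCODE M21 (GRCm38), and promoters from RefSeq (GRCm38.p6). Cyr61 and Ctgf stand for the listed Ccn1 and Ccn2.

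The members, role classes and lists were chosen with earlier results of these data known. Values in every library are given for members without overlap at 5 CPM or more in the higher group, the 2 most abundant of each class, those with 1 library at least 2-fold above the rest, Itga6, Itgb1 and Itgb4, and others where the text compares them. Of each list up to 3 genes of smallest p could be named. Lama3, Lamb3 and Fn1 were chosen after their values were seen.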

Additional observations from a re-analysis of the deposited data

How the results depend on the processing

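Of 46 alternatives for counts, 30 were within 1.5 times of the count in the report, 15 above that and 1 below. Of 56 for medians 42 stayed within 1 SD and 14 moved, and of 428 for single members 358 gave the same direction and call, 12 gave a call in the same direction and 58 reversed, 2 of them with a call (Mrc2 without duct 1 and Ddr2 without duct 2). The cause was not tested. Counting error at 1439004 to 1742531 reads limits low members. Without a filter limma called 94 genes, and with the main filter DESeq2 called 2, with 0 members in both. Fits without 1 library take the spread of the single one remaining from the other group. Genes called then ran from 0 to 901 and members called from 0 to 8, members higher in both tip libraries from 5 to 12 and lower from 3 to 13. With median-ratio scaling 1 member lay above both ducts in both tips and 6 below, and with TMM 6 below.

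The median log2 fold of tested members was -0.15 with TMM, -0.19 with median-ratio scaling, -0.195 with edgeR and -0.23 with DESeq2, and ran from -0.305 to 0.18 with a library left out. For RGD integrins it was -0.0266 with TMM, -0.068 with median-ratio, -0.0189 with quantile scaling, -0.029 with edgeR and -0.0678 with DESeq2, and -0.12 to 0.20 with a library left out. Collagen receptors then ran from -1.22 to 0.66 and laminin receptors from -0.385 to 0.41.

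Members whose direction reversed are given as log2 folds. TMM gave Itga2b -0.15, Itga4 -0.0056, Itga9 -0.16, Sdc1 -0.026 and Mrc2 -0.0071. Median-ratio scaling gave Itga2b -0.19, Itga4 -0.046, Itga9 -0.20, Itgb4 -0.0125, Sdc1 -0.07 and Mrc2 -0.0485. Quantile scaling gave Itga2b -0.28, Itga4 -0.10, Itga9 -0.27 and Mrc2 -0.091. edgeR gave Itga2b -0.185, Itga4 -0.53, Itga6 -0.0063, Itga9 -0.195, Itgb4 -0.0925, Sdc1 -0.10 and Mrc2 -0.80. DESeq2 gave Itga2b -0.22, Itga4 -0.58, Itga6 -0.043, Itga9 -0.23, Itgb4 -0.13, Sdc1 -0.14 and Mrc2 -0.84. With a library left out the ranges were -1.22 to 0.80 for Itga1, -0.13 to 0.17 for Itga2b, -1.31 to 0.21 for Itga3, -1.18 to 1.52 for Itga4, -2.33 to 0.29 for Itga5, -0.40 to 1.15 for Itga6, -1.71 to 1.01 for Itga7, -0.495 to 1.06 for Itga8, -0.35 to 0.39 for Itga9, -1.04 to 0.875 for Itga10, -0.54 to 0.20 for Itgav, -0.42 to 2.87 for Itgb3, -0.385 to 0.82 for Itgb4, -0.12 to 1.95 for Itgb7, -0.12 to 1.02 for Ddr1, -1.90 to 1.59 for Ddr2, -0.31 to 0.63 for Sdc1, -0.035 to 1.24 for Sdc2, -1.03 to 0.18 for Sdc3 and -1.49 to 1.84 for Mrc2.

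The labels number the libraries 1 and 2 in each group. Across genes, the difference between the tips correlated with that between the ducts at 0.15, but 2 pairs cannot show pairing and no label gives it. With the replicate block limma called 0 genes and 0 members, and 1636 genes had an unadjusted p under 0.05, among them Itga5 and Itga2.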
